A study of Mus musculus with 4 samples.

Results

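The genes of antigen presentation by the major histocompatibility complex (MHC) were followed across bulk RNA libraries of mouse intestine. The 10 genes were taken by name from the transcript tables, in which they held 61 of the 141738 transcripts listed, and 10 of the 55203 genes. They comprised 3 class I genes (H2-K1, H2-D1 and B2m), 6 class II genes (H2-Aa, H2-Ab1, H2-Eb1, Cd74, H2-DMa and H2-DMb1) and Ciita, the transactivator of class II. All 4 libraries came from wild-type adult male C57BL/6NTac mice aged 8 to 12 weeks, kept specific-pathogen-free (SPF). In the 2 libraries labelled RVC the tissue was processed with 4 mM ribonucleoside vanadyl complex, an inhibitor of ribonucleases, and the other 2 were labelled fresh frozen. One protocol text, which describes the RVC rinse, accompanied every library, so how the fresh-frozen tissue was handled is known from its label alone. Whether each library came from a different mouse is not given, and p-values measure the spread between these libraries, which may be technical. Each library had a batch number of its own, and batch cannot be told apart from group.

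MHC class I molecules are made of a heavy chain, here H2-K1 or H2-D1, paired with beta-2 microglobulin, the product of B2m, and present peptides from inside the cell to CD8+ T cells on nearly every nucleated cell. MHC class II molecules pair an alpha with a beta chain (H2-Aa with H2-Ab1 as I-A, H2-Ea with H2-Eb1 as I-E) and present peptides from endosomes to CD4+ T cells. They are made mainly by dendritic cells, macrophages and B cells, and in the gut also by epithelial cells that respond to interferon gamma. The invariant chain, encoded by Cd74, occupies the groove of a new class II molecule, and the heterodimer of H2-DMa and H2-DMb1 helps exchange its remnant for peptide. Ciita binds no DNA itself and acts through factors on the X and Y boxes of class II promoters, while NF-kB and interferon response elements are known features of class I promoters.

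Of the 10 genes, 7 lie on chromosome 17 (GRCm39), from H2-K1 at 34214991 to 34219321 to H2-D1 at 35481706 to 35486475. H2-DMa starts 124 kb beyond the lower end of H2-K1, followed by H2-DMb1 at 157 kb, H2-Ab1 at 262 kb, H2-Aa at 287 kb and H2-Eb1 at 310 kb, whereas H2-D1 starts 1267 kb away. B2m lies on chromosome 2 (121978167 to 121983564) and Ciita on chromosome 16 (10297923 to 10346282). The position of Cd74 is given with its levels.

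Class I and class II genes are known for different promoter elements, so stretches that hold class II boxes or class I elements are given here from GRCm39. They run 5′ to 3′ on the strand of the gene, with motif letters in capitals. Capitals mark the Y box TGATTGG, the X box letters GNNACNNAT, the palindrome TGACGTCA known as a CRE, the NF-kB letters GGGATTCCC and the interferon element letters TTTCNNTTC. Motifs were searched on both strands, their letters were chosen after the sequences of these genes had been seen, and in H2-Ab1 the Y box is overlapped by X box letters of the opposite strand.
H2-Ab1, chr17:34482023-34482182, plus strand: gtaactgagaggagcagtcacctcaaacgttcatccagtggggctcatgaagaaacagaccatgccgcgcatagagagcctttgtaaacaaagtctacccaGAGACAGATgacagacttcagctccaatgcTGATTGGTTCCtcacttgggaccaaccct
H2-Eb1, chr17:34524723-34524812, plus strand: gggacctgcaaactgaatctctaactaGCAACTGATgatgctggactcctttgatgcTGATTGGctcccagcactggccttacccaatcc
H2-Aa, chr17:34506799-34506958, minus strand: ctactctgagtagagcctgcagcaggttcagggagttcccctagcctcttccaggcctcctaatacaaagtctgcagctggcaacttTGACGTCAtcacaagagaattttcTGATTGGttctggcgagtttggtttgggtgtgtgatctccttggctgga
H2-K1, chr17:34219393-34219552, minus strand: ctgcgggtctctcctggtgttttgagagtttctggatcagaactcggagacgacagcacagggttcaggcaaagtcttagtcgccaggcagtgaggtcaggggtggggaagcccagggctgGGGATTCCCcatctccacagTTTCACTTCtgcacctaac

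For a count over all genes, the 250 bases before the start of the most abundant transcript were searched in 13670 genes. The Y box letters stood before 4 of the 6 class II genes (H2-Aa, H2-Ab1, H2-Eb1 and H2-DMa), before 0 of the 3 class I genes and before 8.84% of all genes. X box letters were found before 4 of the 6 (H2-Ab1, H2-Eb1, H2-DMa and Cd74), again before 0 of the 3 class I genes, and before 18.9% of all genes, so these short letters alone are common. These counts hold for the start of the most abundant transcript: both Y and X letters stood before ENSMUST00000172912 of H2-K1 (28.8% of its FPKM) and ENSMUST00000172503 of H2-D1 (13.5%), though not in the arrangement counted next. X letters followed on the same strand by Y letters, with starts 15 to 40 bases apart, occurred in 25 of the 13670 windows (0.183%), and H2-Ab1, H2-Eb1 and H2-DMa were 3 of these 25. The starts of the X and Y letters were 30 bases apart in H2-Ab1, 30 in H2-Eb1 and 31 in H2-DMa. H2-Aa held the Y letters and the CRE, a palindrome found in 2.41% of windows. The spacing was therefore nearly the same in H2-Ab1, H2-Eb1 and H2-DMa, while the distance of the Y letters from the start differed.

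The NF-kB letters were rare, in 43 of the 13670 windows (0.315%), and among the class I genes H2-K1 held them. The interferon element letters stood before H2-K1, Cd74 and Ciita and in 6.31% of all windows. Before the most abundant H2-D1 transcript neither was found, but both stood, with the X and Y letters, before its other main transcript, ENSMUST00000172503, which starts downstream. The stretch from the NF-kB letters to the end of the interferon element letters is shown for both heavy chain genes because they were alike in 28 of 29 bases.
H2-K1, chr17:34219403-34219431, minus strand: GGGATTCCCcatctccacagTTTCACTTC
H2-D1, chr17:35481900-35481928, plus strand: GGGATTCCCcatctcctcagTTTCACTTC
For B2m and H2-DMb1 none of the 5 motifs was found, which says only that these letters are not in this window. A match of letters was not taken as a bound site.

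**Figure D1:**
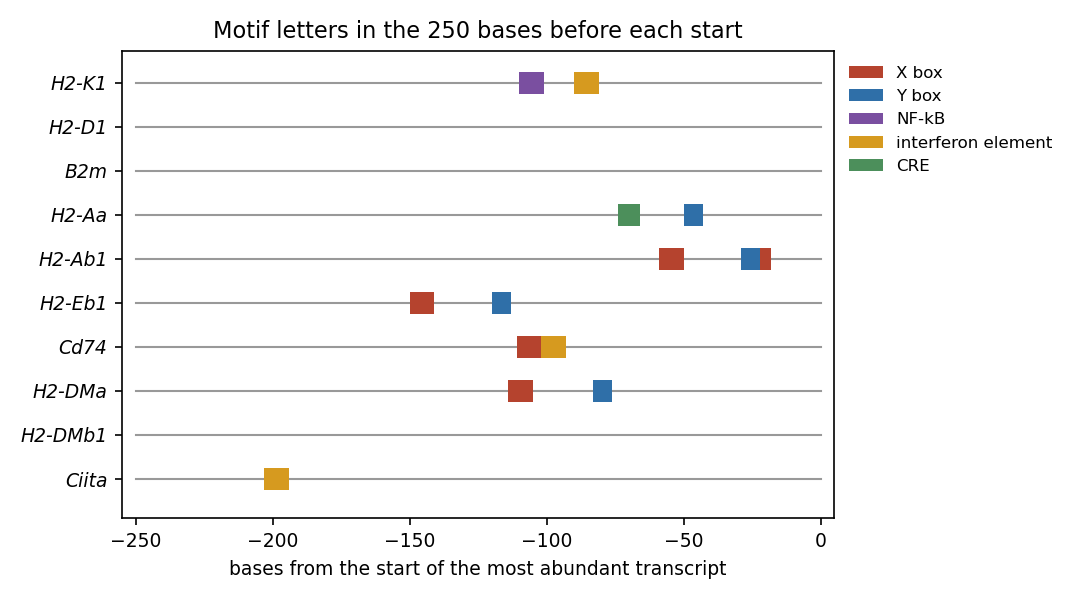
Positions of motif letters (coloured bars) in the 250 bases before the start of the most abundant transcript of each of the 10 genes, in bases from that start. X and Y letters stand together before H2-Ab1, H2-Eb1 and H2-DMa, and NF-kB and interferon element letters before H2-K1.

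Levels are FPKM, fragments mapped to a transcript divided by its length and by the size of the library, summed over the transcripts of a gene. Since the scale divides by length, genes can be set side by side within a library. Unless libraries are named, 4 values in a row follow the order RVC 1, RVC 2, fresh frozen 1, fresh frozen 2. The number of fragments is unknown, and the ratio of coverage to FPKM put the libraries at 72.6% to 100% of the deepest one, fresh frozen 2. The labels named ileum and the protocol text distal colon. Of 8 colon marker genes all 8 exceeded 5 FPKM in every library, the summed level being 3299 to 4371 FPKM, whereas 8 ileum markers summed to 6.09 to 8.26 FPKM, with Fgf15, Apoa4, Defa17 and Defa22 listed at 0 in every library. The 7 epithelial markers summed to 3896 to 5100 FPKM.

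Class I exceeded class II in every library. H2-K1, a classical heavy chain, measured 789 and 750.0 FPKM with RVC, above the 519 and 515 FPKM of fresh-frozen tissue. B2m, the light chain common to class I molecules, measured 383, 316, 345 and 364 FPKM. The heavy chain H2-D1 measured 233, 221, 188 and 179 FPKM. H2-K1 ranked 99th by mean level among the 13771 genes tested below, B2m 179th and H2-D1 300th. The order H2-K1, B2m, H2-D1 held by gene sums in all 4 libraries, and the ranges of neighbours did not overlap. By its leading transcript, at 255, 236, 156 and 160 FPKM, H2-K1 was below B2m in every library.

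Cd74 (chromosome 18, 60936920 to 60945724) was the most abundant class II gene, at 37.3, 33.0, 22.2 and 30.8 FPKM, the lowest value being that of fresh frozen 1. H2-Aa, the alpha chain of I-A, measured 23.98, 19.7, 20.5 and 24.5 FPKM, and its partner H2-Ab1 measured 20.8, 19.9, 14.7 and 16.2 FPKM. H2-Eb1, the beta chain of I-E, measured 13.7, 16.4, 10.7 and 12.2 FPKM. The ranges of Cd74 and H2-Aa, of H2-Aa and H2-Ab1, and of H2-Ab1 and H2-Eb1 overlapped over the 4 libraries. Within each library, however, Cd74 exceeded H2-Aa and H2-Ab1 exceeded H2-Eb1, the ratio of H2-Eb1 to H2-Ab1 being 0.742 ± 0.067 (SD, n = 4), while H2-Aa exceeded H2-Ab1 in 3 of 4. H2-Ea, which encodes the alpha chain that H2-Eb1 needs, was listed at 0 in all 4 libraries. C57BL/6 strains are known to lack I-E because their H2-Ea gene has lost its promoter.

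The peptide exchange genes lay lower still. H2-DMa measured 7.34, 5.70, 3.90 and 5.39 FPKM, again lowest in fresh frozen 1. H2-DMb1 measured 1.85, 1.95, 2.09 and 1.98 FPKM. Ciita measured 0.616, 0.683, 0.633 and 0.673 FPKM, the lowest of the 10 genes in each library. Below H2-Eb1 the order H2-DMa, H2-DMb1, Ciita held by gene sums in all 4 libraries without overlap of neighbours. By leading transcripts H2-DMa was not above H2-DMb1 in every library, as given below. Relative to its mean, the level of H2-DMa varied most over the libraries, with a coefficient of variation of 25.2%, followed by H2-K1 at 22.8% and Cd74 at 20.6%. Ciita (4.90%), H2-DMb1 (5.03%) and B2m (8.16%) varied least. The confidence bounds of the leading transcript lay 23.4% to 35.4% from the value for Ciita, 24.8% to 26.0% for H2-DMb1 and 25.2% to 35.6% for H2-DMa. The places of these low genes in the order of spread are therefore uncertain.

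**Figure D2:**
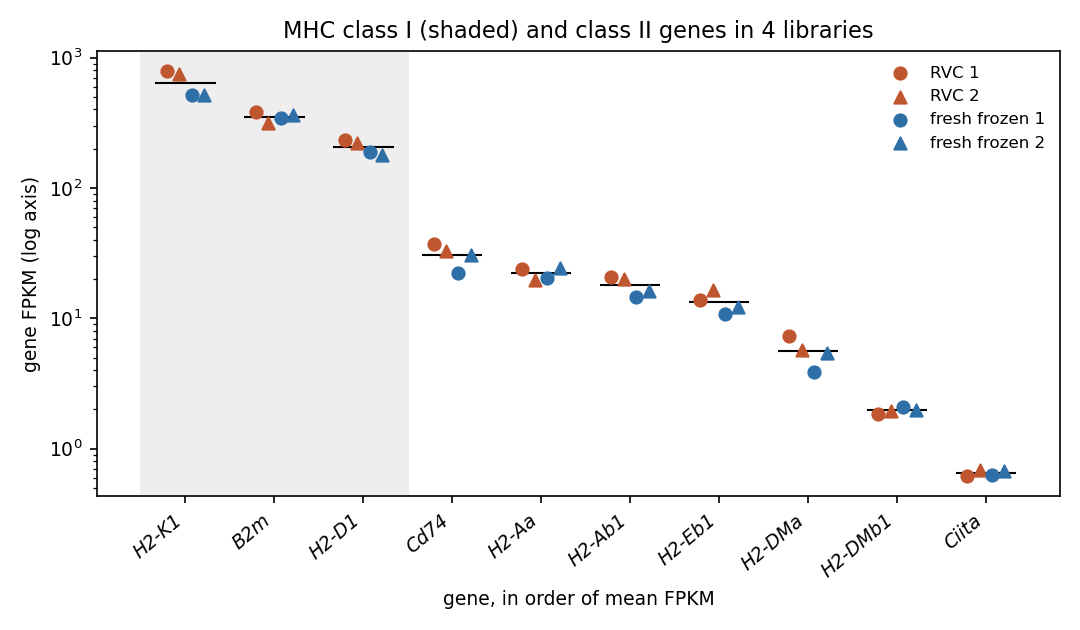
Gene FPKM (log axis) of the 10 genes in each of the 4 libraries, with lines at the mean of 4 and class I genes shaded. The lowest class I value is 179 FPKM (H2-D1) and the highest class II value is 37.3 FPKM (Cd74).

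The gap between the classes was wide. In each library the lowest class I gene, H2-D1, stood 5.82 to 8.48 times above the highest class II gene, Cd74. The median of log2(FPKM + 1) over the 6 class II genes minus that over the 3 class I genes was -4.42, -4.06, -4.67 and -4.60, with a mean of -4.44 ± 0.27 (SD, n = 4). When each gene was represented by its most abundant transcript instead, the mean was -3.97. Summed FPKM of H2-K1 and H2-D1 was 21.1 ± 3.26 times that of H2-Aa and H2-Ab1 (SD, n = 4). In single libraries it was 22.8, 24.5, 20.1 and 17.1 times, higher with RVC without overlap (26.5% of single genes tested). No test was applied, since genes of a class are not replicates. In bulk tissue, fewer cells that make class II and less class II RNA per cell cannot be told apart.

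Ratios of partner chains were examined next. The ratio of H2-Aa to H2-Ab1 was 1.15, 0.986, 1.40 and 1.51, so alpha and beta chain levels were within 1.51 times of each other. The ratio of Cd74 to H2-Ab1 was 1.72 ± 0.17 (SD, n = 4), and its values in the groups overlapped. By gene sums, H2-DMa exceeded H2-DMb1 by 3.97, 2.92, 1.87 and 2.73 times. The leading transcripts, both protein-coding, measured 2.73, 1.89, 1.65 and 2.07 FPKM for H2-DMa and 1.85, 1.95, 2.09 and 1.73 FPKM for H2-DMb1. By leading transcripts H2-DMa was thus below H2-DMb1 in RVC 2 and fresh frozen 1. B2m stood at 0.375, 0.325, 0.487 and 0.524 of the summed heavy chains H2-K1 and H2-D1, again by gene sums. For the last ratio, as for H2-Aa to H2-Ab1, the RVC values were lower than the fresh-frozen values without overlap. For the gene sums of H2-DMa to H2-DMb1 the RVC values were higher without overlap. Among single genes tested, 53.2% had groups apart in either direction. A permutation of 2 libraries against 2 gives an exact two-sided p of no less than 0.333, so these ratios were not tested.

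Transcripts of the class I genes were then examined, because a sum over transcripts gives a short fragment the same weight as a whole messenger. H2-K1 had 16 transcripts listed, of which ENSMUST00000025181 and ENSMUST00000172912, both protein-coding and reaching over nearly the whole gene, held 31.3% and 28.8% of its FPKM. ENSMUST00000238021, a 457-nt transcript at the 3′ end annotated as a retained intron (chromosome 17, 34215080 to 34215648), held 25.3% of the FPKM but 9.44% once each transcript was weighted by its length. H2-D1 was simpler, with 86.3% in ENSMUST00000172785 and 13.5% in ENSMUST00000172503, and B2m had a single transcript. Set against each other by their leading transcripts alone, H2-K1 was 1.30, 1.27, 0.933 and 1.00 times H2-D1, compared with 3.38, 3.40, 2.76 and 2.87 times by gene sums. The 2 leading H2-K1 transcripts together were 2.104, 1.99, 1.63 and 1.73 times H2-D1. H2-K1 was thus above H2-D1 in all 4 libraries by either sum, and below it by leading transcripts in fresh frozen 1.

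Among class II genes, H2-Aa, H2-Ab1 and H2-DMb1 each had a single transcript with most of the FPKM, on average 99.3%, 95.6% and 96.9%, and in single libraries no less than 98.5%, 94.1% and 87.8%. Cd74 was divided between ENSMUST00000050487 (1224 nt, 80.5%) and ENSMUST00000097563 (1410 nt, 18.2%), the ratio of the longer to the shorter being 0.237, 0.179, 0.292 and 0.221. For H2-Eb1, 62.9% lay in ENSMUST00000236232, which the annotation classes as a target of nonsense-mediated decay, and 26.3% in the retained-intron transcript ENSMUST00000235729. Of its 2 protein-coding transcripts, ENSMUST00000235530 held 7.26%, at 0.875, 1.05, 0.715 and 1.21 FPKM, and ENSMUST00000074557 held 1.27%. H2-DMa was spread over 4 transcripts with at least 10% each, led by the protein-coding ENSMUST00000236322 (37.4%). The others were ENSMUST00000237476 (32.3%), ENSMUST00000235408 (13.4%) and ENSMUST00000236938 (10.7%), for which the annotation defines no coding sequence.

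Ciita is known to be transcribed from several promoters that differ between cell types, and its 8 transcripts fell into 3 groups of starts. The upstream group (10297923 to 10298028, 3 transcripts) summed to 0.175, 0.0928, 0.131 and 0.0527 FPKM. The middle group (10306042 to 10306143, 2 transcripts) summed to 0.366, 0.288, 0.312 and 0.540 FPKM, and the downstream group (10307610 to 10307647, 3 transcripts) to 0.0754, 0.303, 0.191 and 0.0812 FPKM. The middle group held 57.8% of the mean, but in RVC 2 the downstream group was the highest. By transcript, ENSMUST00000023147 held 48.6% of the FPKM, ENSMUST00000230392 18.2% and ENSMUST00000230395 10.4%. The confidence bounds in the files lay 23.4% to 35.4% from the value for the leading Ciita transcript, so the division among starts was imprecise.

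**Figure D3:**
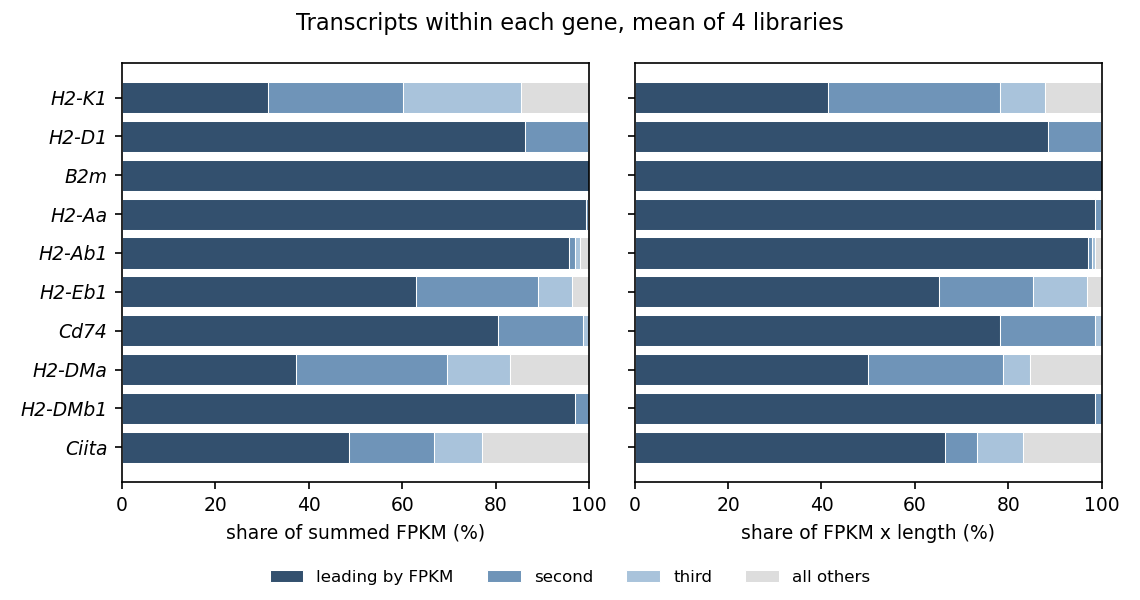
Share of each gene held by the leading, the second, the third and the remaining transcripts, averaged over 4 libraries, by summed FPKM (left) and by FPKM multiplied by length (right), in percent. The third H2-K1 transcript, 457 nt long, falls from 25.3% to 9.44% when length is taken into account.

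Some members share sequence with neighbours or relatives, which bears on how reads were assigned. Of all 50-nt windows of the annotated transcripts, 11.3% of those of H2-K1 and 11.5% of those of H2-D1 also occurred in another H2 gene. At the read length of 150 nt, 0.124% and 0.643% did. Exact matches alone were counted, so the share of reads given to a wrong H2 gene was not measured. Counting every other annotated gene, predicted ones included, 6.34% and 6.05% of the 150-nt windows were shared. H2-DMb1 shared 22.7% of its 50-nt windows and 4.71% of its 150-nt windows with its near copy H2-DMb2, so values of both are uncertain. H2-DMa overlaps Brd2 on the opposite strand, a gene at 37.1 FPKM, and shared 9.55% of 50-nt windows with it. Ciita overlaps Dexi on the opposite strand (4.45 FPKM), with 2.77% of windows shared. A strand setting was not stated, so reads of H2-DMa and Brd2, or of Ciita and Dexi, may not have been kept apart. The same holds for other members that overlap a gene on the opposite strand. H2-K1 shared 16.8% of its 50-nt windows with Gm53999 and H2-D1 shared 15.9% with 5430410E06Rik, noncoding genes for which no level was listed. B2m and H2-Ab1 shared 0 windows with other genes at either length.

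RVC and fresh-frozen libraries were compared with limma on log2(scaled FPKM + 1), where fold changes of genes near 1 FPKM are understated. Of the 10 members, 9 reached the minimum mean of 1 scaled FPKM, Ciita being the exception. None of the 9 had an adjusted p under 0.05 (limma, Benjamini-Hochberg over 13771 genes), the members' values running from 0.129 to 0.949, and 5 of all genes tested did (0.0363%). At an unadjusted p under 0.05 there were 5 of the 9, H2-K1, H2-D1, H2-Ab1, H2-Eb1 and Cd74, all with higher values in RVC, against 18.4% of all genes in either direction and 9.38% in that direction. That count depended on which libraries were kept. With 1 library left out, the log2 differences of these 5 genes ran from 0.17 (Cd74 without fresh frozen 1) to 0.65 (Cd74 without fresh frozen 2). In 7 of the 9 genes the groups' values did not overlap (53.2% of all genes), with RVC above for 6 of them (26.5%) and below for H2-DMb1 (26.6%).

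H2-K1 came nearest to the threshold. After scaling, RVC tissue held 770.2 ± 30.7 FPKM and fresh-frozen tissue 516 ± 4.76 (SD, n = 2 per group), 1.49-fold apart. The log2 difference was 0.58 (SE 0.13, limma adjusted p 0.129). H2-D1 measured 227 ± 9.95 and 183 ± 3.55, a log2 difference of 0.31 (SE 0.11, limma adjusted p 0.217). B2m did not share in this, at 350 ± 48.9 and 353 ± 18.7, with a log2 difference of -0.02 (SE 0.14), and its groups overlapped. The sign for B2m changed when either RVC 2 or fresh frozen 2 was left out. At the transcript level, ENSMUST00000172503 of H2-D1, whose upstream window holds the NF-kB and interferon element letters shown above, measured 36.8, 33.9, 20.2 and 19.6 FPKM, a log2 difference of 0.80 (SE 0.11, limma adjusted p 0.178 over 24174 transcripts). The other main H2-D1 transcript, ENSMUST00000172785, differed by 0.23 (SE 0.10, limma adjusted p 0.360). Whether these transcripts differed from each other in response was not tested.

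Of the class II genes, 4 had higher means with RVC and 2 lower, and 0 passed the adjusted threshold. For H2-Ab1 the scaled means were 20.4 ± 0.71 FPKM with RVC and 15.4 ± 1.30 FPKM in fresh-frozen tissue (SD, n = 2 per group), a log2 difference of 0.39 (SE 0.11, limma adjusted p 0.173). Cd74 measured 35.2 ± 3.18 and 26.5 ± 6.46, a log2 difference of 0.41 (SE 0.17, limma adjusted p 0.261), and H2-Eb1 15.1 ± 1.81 and 11.5 ± 1.22, a difference of 0.36 (SE 0.13, limma adjusted p 0.229). H2-DMa differed by 0.42 (SE 0.18, limma adjusted p 0.276) by gene sums, and by 0.22 with its most abundant transcript in place of the sum. H2-Aa, in contrast, measured 21.8 ± 3.13 and 22.5 ± 3.16, a log2 difference of -0.04 (SE 0.15, limma adjusted p 0.909), and the sign changed without RVC 2 or without fresh frozen 2. H2-DMb1 differed by -0.06 (SE 0.14, limma adjusted p 0.838). Of the 27 member transcripts tested, 0 passed an adjusted p of 0.05 (limma, 0.00414% of all transcripts), with 12 at an unadjusted p under 0.05 (15.5% of all transcripts), all 12 higher with RVC (8.1% of all) and 9 of them transcripts of H2-K1. The groups did not overlap for 16 of the 27 (50.2% of all transcripts), 16 with RVC above (25.8%) and 0 below (24.4%). Most of these 16 were also transcripts of H2-K1, and transcripts of the same gene are not separate observations. On simulated data the transcript fit recovered few of the smaller changes, so the lack of transcript calls says little.

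Set side by side, the median log2 difference was 0.31 over the 3 class I genes and 0.38 over the 6 class II genes, beside 0.0066 over all 13771 genes. When single libraries were paired across groups, the 4 class I medians were 0.24 to 0.37, and within groups they were 0.089 (RVC 1 minus RVC 2) and -0.019 (fresh frozen 1 minus fresh frozen 2). For class II the pairings gave 0.070 to 0.45, and within groups the values were 0.12 and -0.24. Without fresh frozen 1 the class II median was 0.19, that of Cd74 alone 0.17 and that of H2-DMa 0.22, and without RVC 1 H2-DMa stood at 0.26. A test of class I against class II change was not made. Each class held members that differed between groups by 0.04 or less on the log2 scale (B2m and H2-Aa).

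**Figure D4:**
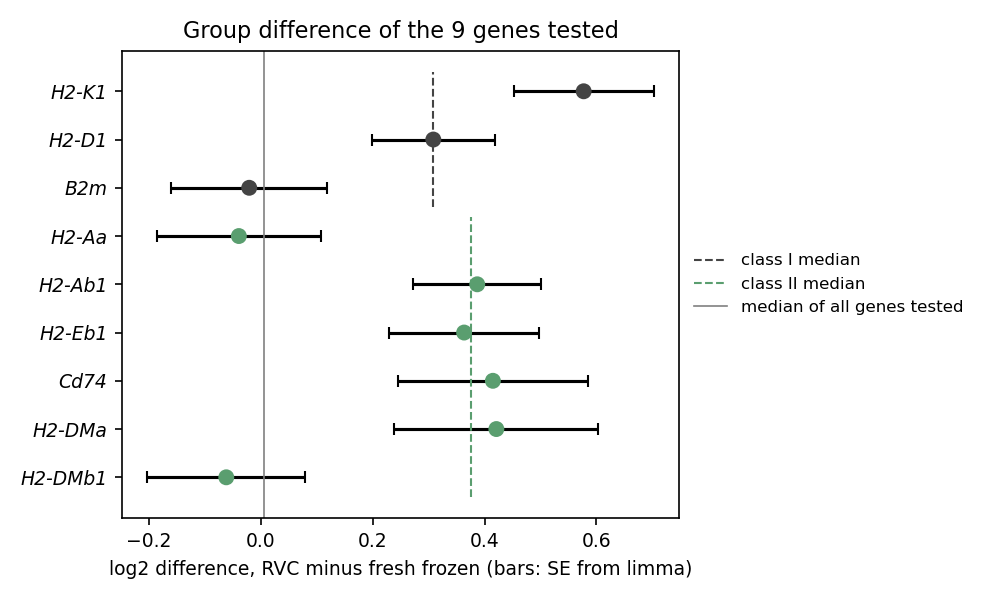
Log2 difference of scaled FPKM + 1 between RVC and fresh-frozen libraries for the 9 genes tested, with SE bars from limma and dashed lines at the class medians (0.31 for class I, 0.38 for class II). None passed an adjusted p of 0.05, and B2m, H2-Aa and H2-DMb1 lie near 0.

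Genes that act with class I molecules were described from a list. Of 14 genes of peptide supply and loading, 13 were tested and 0 passed the adjusted p of 0.05 (limma), while 1 was above and 2 were below with RVC by the unadjusted p (18.4% of all genes in either direction), with a median log2 difference of 0.04. Calr and Pdia3, which encode chaperones of the loading complex in the endoplasmic reticulum, were the most abundant, at 128 ± 9.86 and 121 ± 7.38 FPKM (SD, n = 4). Tapbp, which encodes tapasin, the bridge between empty class I molecules and the peptide transporter, measured 82.2, 78.3, 59.7 and 61.3 FPKM, a log2 difference of 0.41 (SE 0.10, limma adjusted p 0.146). Its groups did not overlap, with RVC above, as for H2-K1 and H2-D1 and for 26.5% of all genes. Of the 13 tested on this list, 3 had groups apart with RVC above and 3 with RVC below (26.6% of all genes). Of 17 other class I and class I-like genes, 14 were tested and 0 passed (2 higher, 1 lower unadjusted, against 18.4% of all genes in either direction, median 0.12). H2-T23, which encodes Qa-1, was highest at 82.3 ± 10.8 FPKM, followed by H2-Q2 at 56.3 ± 5.24 (SD, n = 4). Cd1d1, which encodes a presenter of lipids, differed most, at 1.07, 0.992, 2.00 and 1.86 FPKM (log2 difference -0.53, SE 0.15, limma adjusted p 0.160).

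Genes that act with class II molecules were described in the same way. Of 13 other class II pathway genes, 6 were tested, 0 passed (limma), and by the unadjusted p 2 were higher with RVC (9.38% of all genes) and 0 lower, with a median log2 difference of 0.21. The endosomal proteases Ctss, which degrades the invariant chain, and Ctsl were the most abundant, at 338 ± 42.6 and 115 ± 22.8 FPKM (SD, n = 4), both above Cd74 in every library. Lgmn, which encodes the protease legumain, had the largest difference, 0.43 (SE 0.11, limma adjusted p 0.155). Of the 7 factors that bind the X and Y boxes or form their complex, all were tested and 0 passed, with 2 higher in RVC unadjusted (9.38% of all genes) and a median of 0.06. Nfyc and Creb1 were highest, at 13.1 ± 1.05 and 10.5 ± 1.23 FPKM, and the largest difference was that of Rfxap, at 0.36 (SE 0.15, limma adjusted p 0.269). Each of the 7 stood above Ciita.

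In the interferon gamma pathway 16 of 17 listed genes were matched and 12 tested, of which 0 passed (limma) and 1 was lower and 0 higher with RVC by the unadjusted p (18.4% of all genes in either direction). Ifng itself was at most 0.036 FPKM, whereas its receptor genes Ifngr1 and Ifngr2 measured 219 ± 23.1 and 71.5 ± 6.91 FPKM (SD, n = 4). The median log2 difference of this list was -0.17, opposite in sign to the medians of both MHC classes. Its largest difference was that of Irgm1, a GTPase gene induced by interferon, at 13.8, 11.8, 21.7 and 15.4 FPKM (log2 difference -0.48, SE 0.17, limma adjusted p 0.210).

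Markers of cells that make class II were set beside it in each library. The 9 macrophage markers summed to 120, 122, 90.7 and 81.2 FPKM. Of the 8 tested, 7 had a log2 difference above 0 (51.0% of all genes), with a median of 0.45 over the 8. None passed the adjusted p (limma), 5 were higher and 0 lower by the unadjusted p (18.4% of all genes in either direction), 6 had groups apart with RVC above (26.5% of all genes), and Cx3cr1 was below 1 FPKM in all libraries. The 8 B cell markers were each below 1 FPKM in all libraries and summed to 3.00, 3.59, 0.538 and 4.97 FPKM. The 7 dendritic cell markers summed to 2.09, 2.19, 1.16 and 2.16 FPKM, and 6 of them stayed below 1 FPKM throughout. Fresh frozen 1, the library of lowest relative depth (72.6%), was thus the lowest for B cell markers, dendritic cell markers and the summed class II genes (105, 96.6, 74.1 and 91.1 FPKM). It was also lowest for H2-Ob and H2-Oa, class II genes typical of B cells, at 0.0706 and 0 FPKM against 0.545 to 0.931 and 0.120 to 0.513 in the other libraries.

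Markers of other cell types were examined in the same way. Endothelial markers summed to 20.6, 19.8, 10.6 and 12.7 FPKM, with all 6 above in RVC without overlap (26.5% of all genes), and smooth muscle markers summed to 1089 and 1629 against 666 and 718, again with 6 of 6. The sums of the epithelial markers overlapped between groups, at 4897, 4688, 5100 and 3896 FPKM. By single genes, 7 of 7 epithelial markers had a log2 difference above 0 (51.0% of all genes). For 3 of the 7 the groups were apart with RVC above (26.5% of all genes) and for 0 with RVC below. Plasma cell markers summed to 218 and 201 FPKM against 181 and 174. For all 4 plasma cell markers tested the groups were apart with RVC above (26.5% of all genes). T cell markers summed to 3.80 and 2.49 against 2.80 and 2.49. Fibroblast markers stood at 123 and 149 against 143 and 121, and for 0 of the 5 tested were the groups apart (53.2% of all genes in either direction). The part of any of these cell types in the class I and class II differences was not tested.

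**Figure D5:**
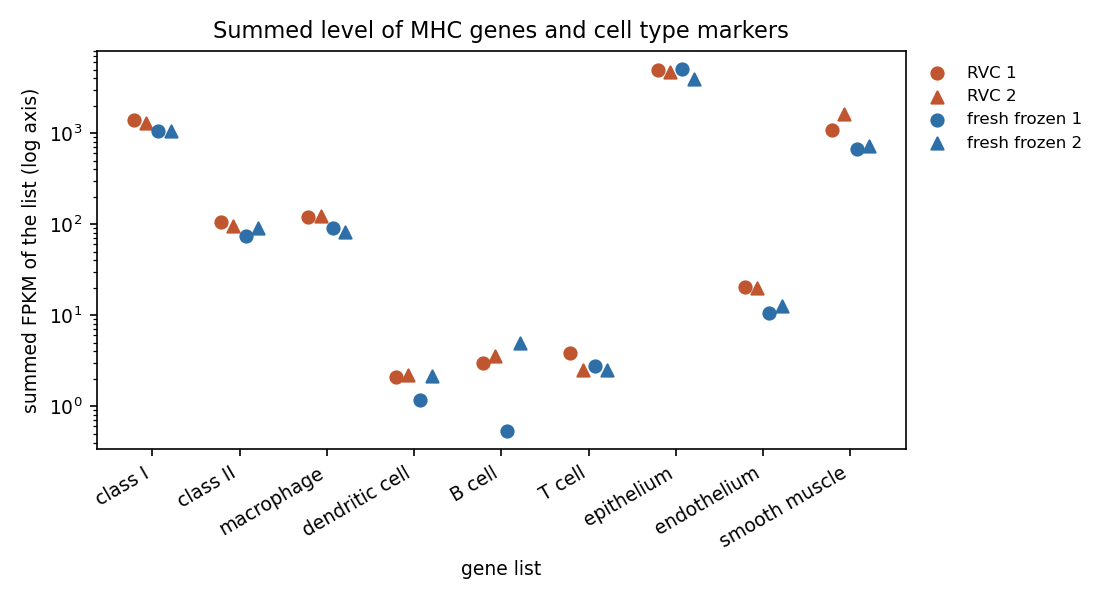
Summed FPKM (log axis) of the class I genes, the class II genes and marker lists of 7 cell types in each library. Fresh frozen 1 is at 0.538 FPKM for B cell markers, where the other libraries are at 3.00 to 4.97, and is lowest for class II at 74.1 FPKM.

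Genes with the most similar pattern over the 4 libraries were found by the root-mean-square distance between centred log2 values, among 11795 other named genes. Nearest to the mean of the class I genes were Slc35f6, Slc2a1 and Arhgef18, at distances of 0.0043 to 0.0061. Nearest to the mean of the class II genes were Akap12, Spata2 and Nos1ap, at 0.012 to 0.017. With 4 libraries many genes come close: 1581 lay within 0.1 of the class I pattern and 1295 within 0.1 of the class II pattern.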

How the data were processed

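The authors sequenced ribosomal-RNA-depleted libraries as 150-bp pairs, per the labels' protocols. TopHat2 2.1.1, Cufflinks 2.2.1 and GRCm39 are named in the submitters' processing notes, which give no role for each. The annotation release, strand setting and read filters are not given in the sources used here. Per the file headers, the deposited values are FPKM per transcript with confidence bounds, plus coverage (a signal per base, deposited by the authors) and length. No test for counts was applied to them. All 61 member transcripts had status OK. Gene FPKM was the sum over transcripts. Libraries were scaled by median ratio (factors 0.992 to 1.01) and log2(scaled FPKM + 1) was tested with limma 3.58.1 in R 4.3.3 (mean-variance trend, two-sided, no covariate), for features with a mean of at least 1, a length of at least 300 nt and status OK, with Benjamini-Hochberg adjustment over all features and a threshold of 0.05. The fit was tested on simulated data. Levels described alone are unscaled.

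Strand, transcript classes and exons came from GENCODE, in which 99.1% of transcripts were found, and promoter bases from the GRCm39 genome, printed outside annotated exons except for stretches of 30 bases. The members and lists were chosen with earlier results of these data known. All members were named. From each pathway list the 2 most abundant genes, the largest difference, genes at 0 throughout and any that passed were named. Member transcripts with at least 10% of a gene were named where a gene had several of them. Tapbp's and Lgmn's groups, the H2-Ob and H2-Oa levels, the cell marker sums and transcript ENSMUST00000235530 were singled out after values were seen. Alternatives were another pseudocount, scaling, filter, length rule, transcript rule, status rule, a replicate block, no trend and each library left out. pandas 2.3.3 joined the tables and matplotlib 3.10.9 drew the plots. The level of 1 marker gene is not reported here.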

Additional observations from a re-analysis of the deposited data

How the results depend on the processing

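No member passed an adjusted p of 0.05 (limma) under any of the 16 alternatives, and the lowest member value was 0.105. Over all genes, 5 calls became 112 with the replicate block, 0 without a filter on low values (3531 unadjusted), 2 at a mean of at least 5, 0 without transcripts under 300 nt in the sum (2577 unadjusted), 2 with the most abundant transcript, 0 without trend (2461 unadjusted) and 8 to 40 with 1 library left out. Deviations of same-numbered libraries correlated at -0.13 over genes. With 2 libraries per group each group holds a single deviation, so whether equal numbers mark a pair remains unknown. A block with crossed numbers, added after seeing the data, gave 12 gene calls and 1 transcript call. The block changed no call of a member. Over all transcripts, 1 call became 0 without a filter (9167 unadjusted), 6 at a mean of at least 5, 7 without a length minimum and 0 with any 1 library left out (2101 to 2960 unadjusted).

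The class I median stayed at 0.25 to 0.35 over its alternatives. The class II median ranged from 0.19 (without fresh frozen 1) to 0.46 (without fresh frozen 2), and class II minus class I was -3.97 with the most abundant transcript and -4.56 to -4.36 with 1 library left out. With 1 library left out B2m ran from -0.16 to 0.12, being 0.12 without RVC 2 and 0.029 without fresh frozen 2, and H2-Aa from -0.18 to 0.10, being 0.10 without RVC 2 and 0.095 without fresh frozen 2. H2-DMb1 was 0.012 with its most abundant transcript. Fits with 1 library in a group assume that it varies like the other group. The causes were not tested. The bounds of the leading transcript lay 2.21% to 2.64% from the value for B2m, 24.8% to 26.0% for H2-DMb1 and 25.2% to 35.6% for H2-DMa.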
